A study of Mus musculus with 10 samples.

Results

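The mitochondrial respiratory chain was followed here through 101 genes with symbols of its subunit families, among 34932 genes in all. Of the 101, 88 lie in the nucleus and 13 on mitochondrial DNA. A match by symbol does not show that each gene encodes a subunit. The members were taken by symbol: protein-coding genes beginning Nduf (without the Ndufaf assembly factors), Sdha to Sdhd, Uqcr, Cox4i, Cox5, Cox6, Cox7, Cox8, Cyc1, Cycs and Atp5, and the 13 coding genes beginning mt-. Complex I had 38 nuclear and 7 mitochondrial members, complex II had 4 nuclear members, complex III had 9 nuclear members and 1 mitochondrial member, complex IV had 18 and 3, complex V had 18 and 2, and cytochrome c had 1. Assignment followed the symbol, so Ndufa4, now regarded as a complex IV subunit, was counted under complex I, and a second gene carrying the symbol Atp5o had no count. Of all members, 98 had a count in at least 1 library and 94 entered the test, which were 81 of the 88 nuclear members and all 13 mitochondrial ones.

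Pmel CD8+ T cells, which carry a transgenic receptor for the gp100 antigen of B16 melanoma, came from Thy1.2/Thy1.2 spleens, were activated with gp100 and IL-2 and were transduced with the retrovirus MSCV-IRES-Thy1.1 (MIT), either empty or carrying the mouse BATF reading frame. Each B16-F10 tumor-bearing Ly5.1 host (C57BL/6 CD45.1/CD45.1), from mice of both sexes aged 8 to 12 weeks, received transduced cells of 1 kind, and at day 7 after transfer 2000 live Thy1.1+ Pmel cells were sorted from the tumor of each mouse, giving 5 MIT-BATF and 5 MIT-Empty libraries. Both groups therefore shared the T cell receptor, the vector, the cytokine culture and the sort. BATF, an AP-1 family transcription factor, was driven by the retroviral promoter in cells that kept their own Batf gene. The question was whether the T cells that received BATF differed from the empty-vector cells in the RNA of their respiratory chain.

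The respiratory chain passes electrons from NADH (complex I) and succinate (complex II) through complex III and cytochrome c to oxygen at complex IV, and complex V, the ATP synthase, uses the resulting proton gradient. Most subunits are encoded in the nucleus and imported, while the hydrophobic core of complexes I, III, IV and V is encoded on mitochondrial DNA, whose polycistronic transcripts are read from both strands. T cells rely on this machinery for persistence and recall, and its activity in T cells inside tumors is known to be limited.

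The libraries held 6534472 to 34102086 estimated counts. Batf RNA did not separate the groups: it lay between 12.4 and 26.5 CPM (normalised counts scaled by library size) in the libraries labelled MIT-BATF and between 13.5 and 50.8 CPM in those labelled MIT-Empty (log2 fold change −0.41 ± 0.30 SE, edgeR quasi-likelihood test, adjusted p = 0.522). The sequence of the BATF frame in the vector was not used here, so this does not check whether vector transcripts were counted, and every direction below is that between the labels. Counts were also shared between libraries. In nearly every gene with at least 5 counts, replicate 2 held at least as many counts as replicate 4, and replicate 3 at least as many as replicate 5, in both groups: the smaller library exceeded the larger in 48 of 12000 and 74 of 13036 genes of the MIT-BATF pairs and in 34 of 11818 and 65 of 12742 genes of the MIT-Empty pairs. Among all other pairs of libraries this share was 3.44% or more. The main counts, medians and calls are therefore also given with the shared counts counted once, by subtracting the smaller library from the larger, and the p-values on the deposited counts treat as independent libraries that were not. All 7 CD8 T cell markers were expressed, with summed levels of 2918 to 5149 CPM in MIT-BATF and 3449 to 5623 CPM in MIT-Empty.

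Every respiratory complex was expressed in these cells. The levels of subunits were compared per length, in the TPM values that the authors deposited, which are scaled by transcript length, within libraries. The highest nuclear member was Cox8a, a small subunit of complex IV, at 3751 ± 289 TPM (SD, n = 10 libraries, range 3225 to 4181). The highest members of the other complexes were Atp5l, subunit g of the ATP synthase, at 2588 ± 264 TPM, Ndufa4 at 1963 ± 375 TPM, and Uqcrh, the hinge protein of complex III, at 1742 ± 145 TPM. Complex II stood lower as a whole, from Sdhc, a membrane anchor, at 23.1 ± 8.34 TPM to Sdhb, its iron-sulfur subunit, at 114 ± 24.5 TPM, and Cycs, the mobile electron carrier, was at 46.4 ± 9.34 TPM. Within complex I the nuclear members ran from 16.4 TPM for Ndufs1, the large iron-sulfur subunit of the NADH-oxidising arm, to Ndufa4, with a median of 234 TPM, so subunits of the same complex spanned over 100-fold in RNA. Mitochondrial members ranged from 1389 TPM for mt-Nd5 to 28381 ± 11460 TPM for mt-Atp6. The order of the 81 tested nuclear members was nearly the same in every library: Spearman's rho over the 45 pairs of libraries lay between 0.98 and 1.00, as a description across genes of libraries that in part share counts. Estimates for transcripts near the length of a fragment, such as mt-Atp8 with 204 bases, are less certain.

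**Figure D1:**
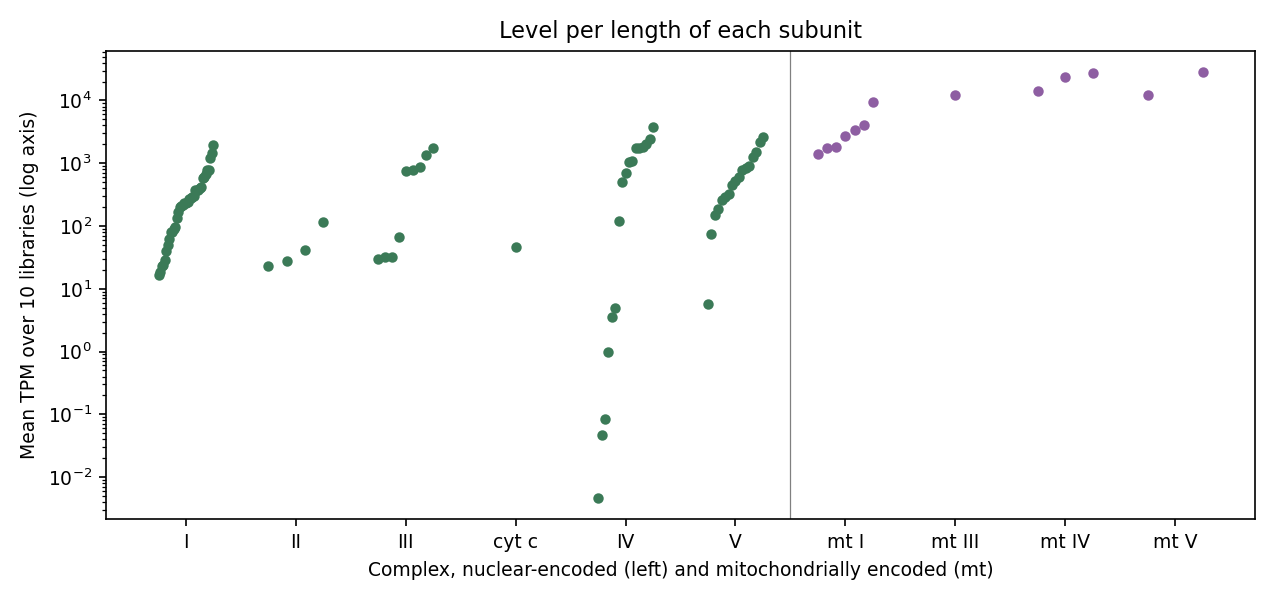
Mean TPM over the 10 libraries (log axis) of each subunit with a count, by complex, with nuclear-encoded subunits in green and mitochondrially encoded ones in purple. Complex II and cytochrome c lie below most of complexes IV and V, and the lowest points of complex IV are tissue isoforms.

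The isoforms expressed were the ubiquitous ones. Complex IV has subunits with separate genes for muscle, lung or testis, and these were at or near 0. Cox4i2, the lung and hypoxia-related isoform, had 8 counts in all against 109944 for Cox4i1. Cox6a2, the heart and muscle isoform, had 115 counts against 149926 for Cox6a1, and made up 0 to 0.177% of the TPM of the pair. Cox6b2, a testis isoform, made up 0.0962 to 0.76% beside Cox6b1, and Cox7a1, the heart and muscle isoform, 0.0276 to 0.563% beside Cox7a2. Cox8b, a muscle isoform, and Ndufa4l2, a hypoxia-induced relative of Ndufa4, had no count in any library, Cox8c had 4 and Cox7b2 had 1. Cox4i2, Cox6a2, Cox7b2 and Cox8c, Cox8b, Ndufa4l2 and the second Atp5o were the 7 members too low for the test. In contrast, the 3 genes for the c subunit of the ATP synthase rotor, whose mature proteins are identical, were all in use, with Atp5g1 at 39.8 to 45.7%, Atp5g2 at 32 to 40.7% and Atp5g3 at 16 to 25.9% of their summed TPM. Processed copies share sequence with several nuclear members, and the 9 copies named for 6 of the members held few counts; the most were 336 for Ndufab1-ps, 1.33% of those of Ndufab1.

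Promoter sequence was examined for 70 nuclear members that had a window, 250 bases before to 50 bases after the start, in RefSeq (GRCm38.p6). The exact letters GCATGCGC, a core bound by NRF1, a regulator of respiratory genes, were present on either strand in 11 of the 70 (15.7%) against 3.05% of the 27025 genes with a window. AAGATGGC, a YY1 core, was present in 10 (14.3%) against 3.19%, and CCGGAAGT, an ETS core that GABPA also binds, in 5 (7.14%) against 4.31%. In all, 25 members (35.7%) held at least 1 of these words against 9.91% of all genes. GCATGCGC partly overlaps its own reverse complement, so adjacent matches on both strands were counted once per gene. Windows of 120 bases, 110 before and 10 after the start, are shown on the gene's strand for the mobile carrier, the highest nuclear member, a complex III member with words of 2 kinds, an ATP synthase member with the YY1 core, and the member with the lowest fold change, with the searched words in capitals. The window of Cycs was chr6:50566560-50566679 (− strand), of Cox8a chr19:7217607-7217726 (− strand), of Uqcr11 chr10:80406812-80406931 (− strand), of Atp5j chr16:84834967-84835086 (− strand) and of Cox7a1 chr7:30184061-30184180 (+ strand).
Cycs: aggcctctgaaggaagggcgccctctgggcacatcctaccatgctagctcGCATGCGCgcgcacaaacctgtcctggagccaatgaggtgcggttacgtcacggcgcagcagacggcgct
Cox8a: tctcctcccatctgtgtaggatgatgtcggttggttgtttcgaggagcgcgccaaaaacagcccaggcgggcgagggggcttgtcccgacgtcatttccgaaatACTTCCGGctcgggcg
Uqcr11: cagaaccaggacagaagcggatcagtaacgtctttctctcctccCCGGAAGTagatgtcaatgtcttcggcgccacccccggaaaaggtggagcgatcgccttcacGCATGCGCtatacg
Atp5j: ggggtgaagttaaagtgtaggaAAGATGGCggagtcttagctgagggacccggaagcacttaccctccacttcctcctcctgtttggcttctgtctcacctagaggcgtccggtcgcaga
Cox7a1: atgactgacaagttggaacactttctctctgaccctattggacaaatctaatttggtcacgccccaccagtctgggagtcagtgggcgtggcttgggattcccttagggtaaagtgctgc
The table gives Atp5j a second start, whose window (chr16:84835616-84835735, − strand) held none of the words. In Cycs the NRF1 core began 60 bases before the start. Uqcr11 held an ETS core 66 bases and an NRF1 core 4 bases before the start. The muscle isoform Cox7a1 held none of the 3 words in its window, which says only that these letters were not there.

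None of the 13 mitochondrially encoded subunits passed the test between the groups (edgeR quasi-likelihood test, Benjamini-Hochberg adjusted p under 0.05), against 4.58% of the 11781 genes tested. Their log2 fold changes ran from −0.23 for mt-Cytb, the catalytic core of complex III, to 0.47 for mt-Nd6, a membrane subunit of complex I, with a median of 0.03. The intervals were wide: SEs lay between 0.30 and 0.44, and the 95% interval stayed within 1 log2 unit of 0 for 7 of the 13. With the shared counts counted once, the test again called none, against 1.26% of 11129 genes, the median was −0.16 and no interval stayed within 1 log2 unit.

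The spread came mainly from MIT-BATF replicate 1. Mitochondrially encoded subunits took 33.2, 12.6, 11.5, 14.9 and 15.1% of all counts in MIT-BATF replicates 1 to 5 and 22.6, 21.7, 15.5, 23.1 and 16% in MIT-Empty replicates 1 to 5. MIT-BATF replicate 1 thus lay above all other libraries, and the other 4 MIT-BATF libraries lay below every MIT-Empty library. Once shared counts were counted once, the share was 10.3 and 5.61% in MIT-BATF replicates 2 and 3 and 14.7% in MIT-Empty replicate 3, which then lay below MIT-BATF replicates 4 and 5. Summed over the 13 genes, the level averaged 188804 CPM with an SD of 132386 across the 5 MIT-BATF libraries, 131475 CPM with an SD of 38170 across the 4 without replicate 1, and 200261 CPM with an SD of 48254 across the 5 MIT-Empty libraries. In these summed CPM the groups overlapped also without replicate 1. MIT-BATF replicates 4 and 5, at 156095 and 170910 CPM, lay above MIT-Empty replicate 3, at 135178 CPM. MIT-BATF replicate 5 also lay above MIT-Empty replicate 5, at 162750 CPM. All 13 genes were highest in replicate 1 among the MIT-BATF libraries. Without that library the log2 fold changes were below 0 for 12 of 13 genes, with a median of −0.42 and a range of −0.82 to 0.00, and still none was called, while 6.24% of all 12376 genes then tested were. At an unadjusted p under 0.05 stood 5 of the 13 (38.5%), all lower in MIT-BATF, against 11.3% of all genes in this direction. Leaving it out and counting shared counts once, all 13 were below 0, with a median of −0.70 and none called. In that fit 0 of the 13 had an unadjusted p under 0.05, against 11.7% of all genes. The median log2 fold change was also below 0 without MIT-Empty replicate 3 (−0.13) and without MIT-Empty replicate 5 (−0.04). It was above 0 when any of the remaining libraries was left out, from 0.03 (MIT-BATF replicate 4) to 0.21 (MIT-BATF replicate 3). Without the containing libraries, replicates 2 and 3 of each group, it was 0.33 and all 13 genes lay above 0. Mitochondrial counts per nuclear subunit count ordered the groups as the shares of all deposited counts did. They were 13.3 in MIT-BATF replicate 1, 3.9 to 4.67 in the other MIT-BATF libraries and 5.03 to 7.25 in MIT-Empty. In bulk RNA, fewer cells of a type and less RNA per cell cannot be told apart.

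**Figure D2:**
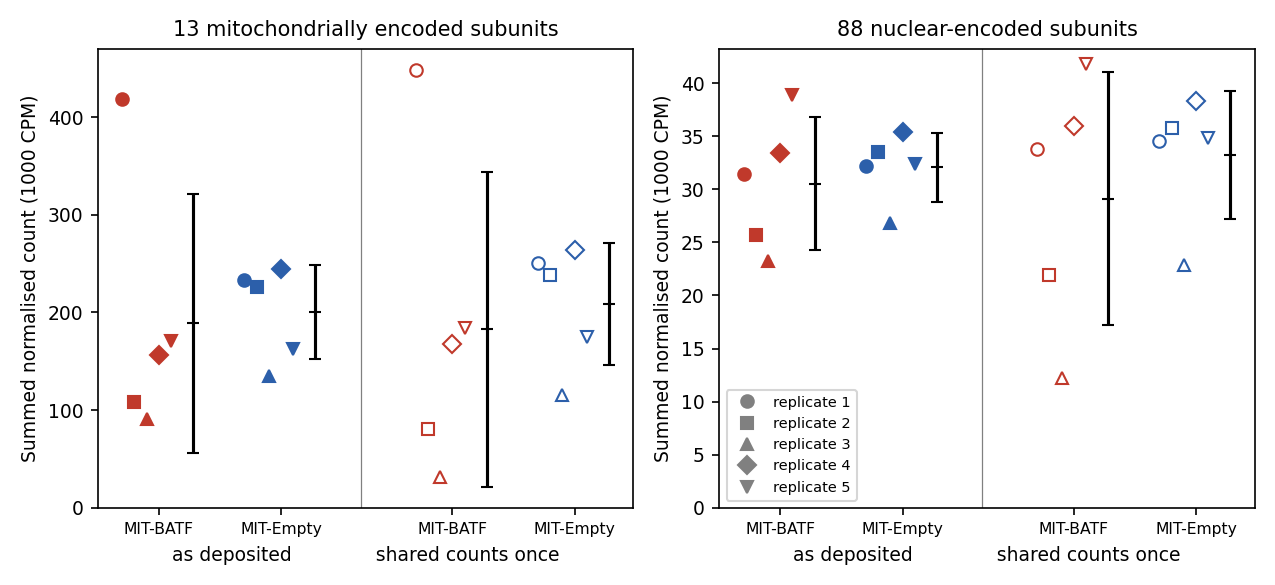
Summed normalised counts (in units of 1000 CPM) of the mitochondrially encoded (left) and nuclear-encoded (right) subunits in each library, with filled points as deposited and open points with shared counts counted once. Bars show mean and SD of 5 libraries, and MIT-BATF replicate 1 is the highest point on the left at 418121 CPM.

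As deposited, melanoma transcripts were highest in the MIT-Empty libraries with the highest of these shares. The 8 melanocyte and melanoma markers summed to 116, 577, 52.6, 1738 and 39.7 CPM in MIT-Empty replicates 1 to 5. The 3 libraries with the highest sums, replicates 4, 2 and 1, were those with over 20% mitochondrial counts. Of these, replicates 4 and 2 share counts and are not separate observations. With the shared counts counted once, replicate 2 kept a mitochondrial share of 21.1%. In MIT-BATF the same sum lay between 14.4 and 29.5 CPM and was lowest in replicate 1, the library with the highest mitochondrial share. All 6 of the 8 markers that were tested were lower in MIT-BATF, among them Tyrp1, a pigment enzyme, which was at 1.08 to 4.48 CPM in MIT-BATF and at 37.4, 243, 14, 753 and 9.46 CPM in MIT-Empty (log2 fold change −6.11 ± 1.09, edgeR adjusted p = 0.00498). None of the 8 was at 0 in every library. The part of tumor cell RNA in the mitochondrial levels was not tested.

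Within the mitochondrial transcripts the composition was close between groups. The 3 complex IV genes made up the greater part, with mt-Co1, the catalytic subunit, at 23.2 ± 4.1% of the 13 in MIT-BATF and 22.4 ± 4.6% in MIT-Empty, and mt-Co3 at 17.6 ± 0.90% and 17.8 ± 1.0%. The share of mt-Co1 was lowest in replicate 1 of each group, at 16.1 and 15.8%, and at 19.9% or more in the rest. For 11 of the 13 genes the shares overlapped between groups. The share of mt-Nd6, the coding gene that lies on the opposite strand to the other 12, was 0.733, 0.91, 0.782, 0.772 and 0.718% in MIT-BATF and 0.641, 0.521, 0.605, 0.384 and 0.457% in MIT-Empty, so that all MIT-BATF libraries were above all MIT-Empty libraries, replicate 1 included. The share of mt-Cytb was 10.52 to 12.98% in MIT-BATF and 13.04 to 13.97% in MIT-Empty, with every MIT-BATF library below but the nearest libraries almost equal. With the shared counts counted once, both overlapped, and no gene separated the groups: mt-Nd6 then ranged from 0.718 to 1.11% in MIT-BATF and from 0.384 to 0.82% in MIT-Empty. Libraries of this kind do not keep the strand, so reads over mt-Nd6 (mitochondrial genome, GRCm38, 13552 to 14070, − strand) cannot be told apart from RNA of the opposite strand, and mt-Nd6 shares 14 bases with mt-Nd5. On the same strand, mt-Atp8 and mt-Atp6 share 43 bases and mt-Nd4l and mt-Nd4 share 7, so their separate counts are uncertain.

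**Figure D3:**
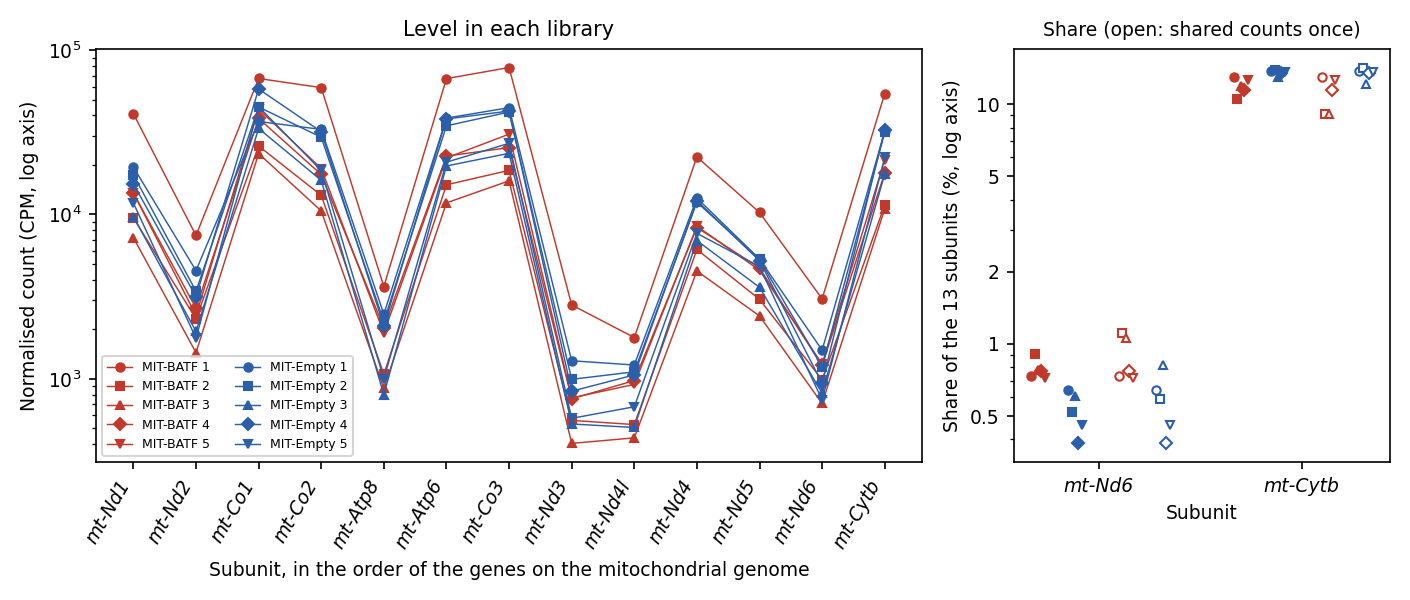
Left, CPM (log axis) of the 13 mitochondrially encoded subunits in each library in genome order. Right, the share of mt-Nd6 and mt-Cytb among the 13 (log axis), with open points for shared counts counted once. On the left, MIT-BATF replicate 1 lies highest and some of the other profiles cross, as at mt-Co1. On the right, the groups separate only in the filled points.

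Of the 81 nuclear members tested, none passed the threshold either. Fold changes were small and mostly below 0: 60 of 81 lay below 0, with a median of −0.15, while 49.3% of all genes tested lay below 0 with a median of 0.01. The SEs had a median of 0.18, and for 79 of the 81 the 95% interval stayed within 1 log2 unit of 0, the exceptions being Cox7a1 and Cox6b2. At an unadjusted p under 0.05 stood 6 members (7.41%), all lower in MIT-BATF, against 18.1% of all genes in either direction and 8.97% in this direction. This count depended on single libraries: without MIT-BATF replicate 5 it was 21 of 81 (25.9%), all lower, against 10.2% of all genes lower, and without MIT-Empty replicate 5 it was 4 of 82, of which 2 (2.44%) were lower, against 7.60%. Without the contained libraries it was 11 of 81 (13.6%), all lower, against 5.53%. Without the containing libraries it was 2 of 81, of which 1 (1.23%) was lower, against 4.33%. With the shared counts counted once, 70 of 81 lay below 0, with a median of −0.21 against 50.2% and a median of 0.00 for all genes, none passed, and 1 member (1.23%) had an unadjusted p under 0.05 against 10.6% of all genes; 55 of the 81 intervals then stayed within 1 log2 unit. DESeq2 called 1 member, Cox7a1, against 8.00% of the 15661 genes for which it gave an adjusted p.

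The summed nuclear level was 31463, 25694, 23211, 33417 and 38844 CPM in MIT-BATF replicates 1 to 5 and 32148, 33523, 26800, 35424 and 32372 CPM in MIT-Empty. The groups overlapped, and replicates 2 and 3 were the lowest of MIT-BATF and replicate 3 the lowest of MIT-Empty. The means were 30526 ± 6230 and 32053 ± 3211 CPM (SD, n = 5 each), and 29121 ± 11872 and 33251 ± 6012 CPM with the shared counts counted once.

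By complex, medians of the nuclear members lay close together. Complex I had 29 of 37 tested members below 0 and a median log2 fold change of −0.18. Complex II had 4 of 4 below 0 and a median of −0.14, complex III had 7 of 9 and −0.08, and complex V had 13 of 17 and −0.15. Complex IV stood on the other side of 0, with 6 of 13 below 0 and a median of 0.07. With the shared counts counted once it had 9 of 13 below 0 and a median of −0.08, so its sign did not hold, while complexes I, II, III and V stayed below 0 at −0.27, −0.13, −0.24 and −0.21. Summed levels of complex IV averaged 10338 ± 2425 (MIT-BATF) and 9983 ± 1110 (MIT-Empty) CPM, those of complex I 8105 ± 1660 and 9096 ± 911 CPM, and those of complex V 8317 ± 1523 and 8857 ± 859 CPM, all with overlapping groups.

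**Figure D4:**
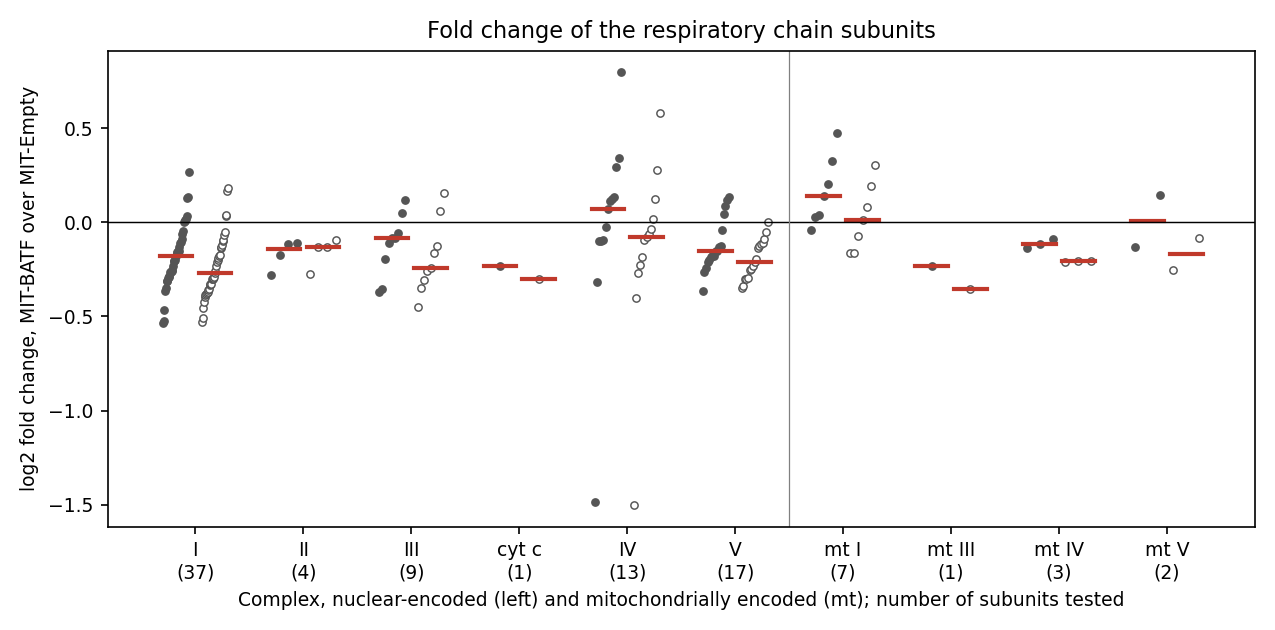
Fold change (log2, MIT-BATF over MIT-Empty) of each tested subunit by complex, nuclear-encoded on the left and mitochondrially encoded (mt) on the right, with filled points as deposited, open points with shared counts counted once, and red lines at medians. Points lie mostly between −0.6 and 0.5 and no subunit passed the test; the lowest point of complex IV is Cox7a1.

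In complex I, the lowest members were Ndufab1, the mitochondrial acyl carrier protein that is also a subunit, and the NADH-arm subunits Ndufv2 and Ndufs4, the last a late-assembled accessory subunit. Ndufab1 (chromosome 7, 122085403 to 122101886) was measured at 92.5, 129, 113, 117 and 157 CPM in MIT-BATF and 109, 152, 166, 251 and 203 CPM in MIT-Empty, with a log2 fold change of −0.53 ± 0.21 (edgeR adjusted p = 0.177). Ndufv2 (chromosome 17, 66078638 to 66101559) was at 113, 175, 161, 203 and 231 CPM in MIT-BATF and 186, 238, 239, 285 and 324 CPM in MIT-Empty, with −0.53 ± 0.20 (edgeR adjusted p = 0.16). In both genes replicate 1 was the lowest library of each group and the groups overlapped. Ndufs4 (chromosome 13, 114287795 to 114388258) was at 129 to 253 CPM in MIT-BATF and 219 to 304 CPM in MIT-Empty, with −0.47 ± 0.18 (edgeR adjusted p = 0.17). Ndufs4, Ndufv2 and Uqcr11 were singled out after their values were seen. The highest member of complex I was Ndufb7, a membrane-arm accessory subunit, at 0.27 ± 0.16 (adjusted p = 0.401), and the most abundant, Ndufa4, was at −0.13 ± 0.25 (adjusted p = 0.845). Ndufab1, Ndufv2 and Ndufs4 were at −0.46, −0.53 and −0.51 with the shared counts counted once (edgeR adjusted p = 0.628, 0.51 and 0.58).

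In complex II, which also serves the TCA cycle, Sdha, the flavoprotein that oxidises succinate, was at 84.4, 72.6, 84.8, 70.1 and 84.5 CPM in MIT-BATF and 86.5, 78.5, 94.3, 84.2 and 83.8 CPM in MIT-Empty. It varied least of all nuclear members by its SE, with a log2 fold change of −0.11 ± 0.12 and a 95% interval of −0.37 to 0.16. Sdhd, a membrane anchor, was at −0.28 ± 0.15 and Sdhb at −0.11 ± 0.17, with overlapping groups in both.

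In complex III, Cyc1, cytochrome c1, was the member whose groups did not overlap, 1 of the 94 tested against 6.45% of all genes. Cyc1 (chromosome 15, 76343523 to 76346260) was measured at 50.3, 46.4, 46.6, 36.7 and 46 CPM in MIT-BATF and 60.2, 51.1, 61.9, 54.6 and 63.8 CPM in MIT-Empty. The nearest libraries, MIT-BATF replicate 1 and MIT-Empty replicate 2, differed by less than 1 CPM. The log2 fold change was −0.37 ± 0.13 (edgeR adjusted p = 0.143) and, with the shared counts counted once, −0.31 (adjusted p = 0.548), when the groups overlapped, with 57.8 CPM left in MIT-BATF replicate 2. Uqcr11, a small subunit, was at 189 to 328 CPM in MIT-BATF and 283 to 357 CPM in MIT-Empty, with −0.36 ± 0.16 (adjusted p = 0.24). Uqcrfs1, the Rieske iron-sulfur protein, was the highest at 0.12 ± 0.18, and Uqcrh was at −0.08 ± 0.18. Cycs, which links complexes III and IV and triggers apoptosis when released, was at 225, 227, 209, 263 and 358 CPM in MIT-BATF and 283, 306, 223, 423 and 273 CPM in MIT-Empty, with −0.23 ± 0.19 (adjusted p = 0.583).

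In complex IV, the widest change was in a gene at the edge of detection. Cox7a1 (chromosome 7, 30184144 to 30186078), the muscle isoform, was at 0.351, 0.324, 0.95, 0.294 and 1.35 CPM in MIT-BATF, from 4, 8, 41, 3 and 25 counts, and at 1.35, 1.88, 1.84, 1.78 and 2.66 CPM in MIT-Empty, from 11, 37, 45, 11 and 32 counts. MIT-BATF replicates 3 and 5, which share counts, were the highest of their group, and the groups met at 1.35 CPM. Its log2 fold change was −1.49 ± 0.49 (edgeR adjusted p = 0.107), and −1.50 (adjusted p = 0.26) with the shared counts counted once; DESeq2 gave an adjusted p of 0.0447. Its ubiquitous counterpart Cox7a2, at over 700 CPM in every library, was at 0.13 ± 0.28. Cox6b2 was the highest at 0.80 ± 0.44 (adjusted p = 0.362), from 5 to 65 counts a library. The main subunits lay near 0, with Cox4i1, the regulatory subunit, at 0.07 ± 0.15, Cox6a1 at −0.10 ± 0.21, Cox6b1 at 0.12 ± 0.19, Cox7b at −0.10 ± 0.24 and Cox8a at 0.11 ± 0.19.

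In complex V, Atp5c1, the gamma subunit of the rotor stalk, was the lowest at −0.37 ± 0.19 (adjusted p = 0.324), with 278 to 571 CPM in MIT-BATF and 446 to 677 CPM in MIT-Empty. Atp5k, subunit e of the membrane part, was the highest at 0.13 ± 0.23, and Atp5l was at 0.09 ± 0.22. The c subunit genes Atp5g1, Atp5g2 and Atp5g3 were at −0.15 ± 0.18, −0.21 ± 0.18 and −0.27 ± 0.14, with overlapping groups in each.

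The nuclear subunits also showed how the libraries differed from each other. Their transcripts are short, with a median length of 679 bases weighted by TPM against 2082 for all genes tested. After subtraction, the counts left in MIT-BATF replicate 3 gave a summed nuclear level of 12228 CPM against 41751 CPM in replicate 5, the library contained in it. The log2 ratio of the 2 had a median of −1.57 over the 81 members and −0.15 over the 3847 genes with a mean of at least 20 CPM. It followed length: the 33 members under 600 bases had a median of −2.09 and the 48 longer members −0.67, with a Spearman's rho of 0.72 over members and 0.57 over all these genes, as a description across genes. The 355-base Ndufa3 was at −2.88 and the 437-base Cox7c at −2.91, whereas the 1717-base Sdha was at 0.01 and the 2042-base Atp5a1 at 0.16. Cycs, with 3075 bases on average, was low at −1.89, so length did not order every member. The counts left in MIT-BATF replicate 2 over replicate 4 gave a median of −0.52 and a rho of 0.60 over members. The MIT-Empty pairs gave medians of −0.10 and −0.65 with rho of −0.02 and 0.00 over members. Over all genes with at least 20 CPM, however, rho was 0.60 for MIT-Empty replicate 3 over 5, with medians of −0.61 for genes under 600 bases and −0.14 for longer ones, and 0.02 for replicate 2 over 4. In the comparison of the groups, the fold changes as deposited had medians of −0.08 for the members under 600 bases and −0.17 for the longer ones, and −0.22 and −0.21 with the shared counts counted once. The part of transcript length in the fold changes was not tested.

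**Figure D5:**
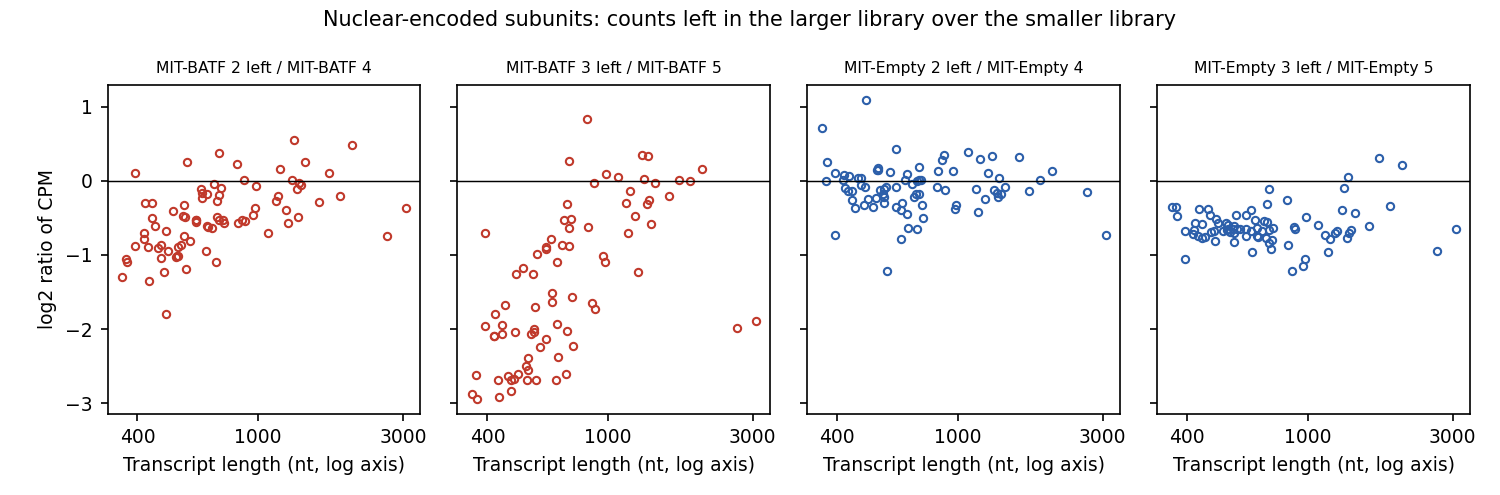
Log2 ratio of CPM of the 81 tested nuclear-encoded subunits between the counts left in the larger library and those of the library it contains, against transcript length (log axis), for the 4 pairs. In MIT-BATF replicate 3 over 5 the subunits under 600 bases have a median of −2.09 and the longer ones a median of −0.67. Among the subunits of the MIT-Empty pairs rho is −0.02 and 0.00.

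MIT-BATF replicate 1 also differed in its nuclear members. Among the MIT-BATF libraries it was the lowest in 45 of the 81 and the highest in 11, and over the mean of replicates 4 and 5 its members had a median log2 ratio of −0.55, against −0.09 over all genes with at least 20 CPM. Genes under 600 bases had a median of −0.46 here, both among the members and among all genes, with a Spearman's rho with length of −0.09 over members and 0.50 over all genes.

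Few genes that build and supply the chain were called, and their counts are read against the 4.58% of all genes. Of the assembly factors, 1 of 54 tested was called: Sdhaf3, which helps to insert iron-sulfur clusters into complex II, was lower in MIT-BATF, at 7.66 to 14.4 CPM against 13.4 to 21.7 CPM (log2 fold change −0.75 ± 0.20, edgeR adjusted p = 0.0488). The complex I assembly factor Tmem126a was at −0.67 ± 0.18 (adjusted p = 0.051) and Lyrm7, an assembly factor of complex III, at −1.21 ± 0.38 (adjusted p = 0.0927). Of the 54, 11 had an unadjusted p under 0.05 and 10 of these (18.5%) were lower, against the 8.97% of all genes. DESeq2 called 4, among them Sdhaf3, Tmem126a (adjusted p = 0.0153) and Lyrm7 (adjusted p = 0.0269). The edgeR test called no member among 78 proteins of the mitochondrial ribosome, 46 genes of mitochondrial DNA maintenance and expression, 25 of the TCA cycle and 39 of protein import, with median log2 fold changes of −0.07, −0.09, −0.07 and −0.12. In these lists 6, 8, 1 and 2 genes had an unadjusted p under 0.05, and DESeq2 called 2, 5, 0 and 0, against the 8.00% of all genes. Their lowest p-values belonged to Mrpl2 (0.51 ± 0.16), a ribosomal protein, Dguok (−0.63 ± 0.18), a kinase that supplies deoxyguanosine nucleotides, Idh2 (−0.56 ± 0.24), a mitochondrial isocitrate dehydrogenase, and Timm29 (0.49 ± 0.20), an inner membrane translocase subunit. Tfam, which packages and transcribes mitochondrial DNA, was at 22.5 to 34.1 CPM in MIT-BATF and 23.3 to 32.1 CPM in MIT-Empty, with −0.07 ± 0.16 (adjusted p = 0.881). Of 22 antioxidant enzymes 1 was called, Glrx, a glutaredoxin, higher in MIT-BATF at 130 to 181 CPM against 55.3 to 108 CPM (0.86 ± 0.18, adjusted p = 0.0146). With the shared counts counted once no gene of these lists was called; Sdhaf3 was then at −0.85 (adjusted p = 0.24) and Glrx at 0.82 (adjusted p = 0.119).

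Of 18 tested regulators of mitochondrial biogenesis, 1 was higher and 1 lower. Myc, a driver of growth and of mitochondrial gene expression, was at 39.7, 52.3, 51.6, 38 and 47.9 CPM in MIT-BATF and 34.9, 24.6, 29.7, 28.1 and 27.6 CPM in MIT-Empty, without overlap (log2 fold change 0.67 ± 0.15, edgeR adjusted p = 0.0173, and 0.74 with adjusted p = 0.074 with the shared counts counted once). Ppargc1a, which encodes the coactivator PGC-1alpha, was at 0, 0.365, 0.209, 0.783 and 0.216 CPM in MIT-BATF and 5.26, 7.1, 1.02, 19.6 and 0.581 CPM in MIT-Empty (−4.43 ± 0.90, adjusted p = 0.0114), and was too low for the test once shared counts were counted once. MIT-Empty replicates 4 and 2, the highest for Ppargc1a, were also the highest for the melanoma marker Tyrp1. Replicates 4 and 2 share counts, with 121 and 140 for Ppargc1a and 4662 and 4791 for Tyrp1, so they are not separate observations. MIT-Empty replicate 5, the lowest of its group for Ppargc1a, was also the lowest for Tyrp1. The part of tumor cell RNA in the Ppargc1a level was not tested. Nrf1 and Gabpa, whose factors bind the promoter words above, were at 0.18 ± 0.20 and 0.18 ± 0.20 (adjusted p = 0.701 and 0.707).

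Markers of other cells beside melanoma summed to less than those of CD8 T cells. Macrophage and monocyte markers summed to 59.2 to 131 CPM in MIT-BATF and 62 to 348 CPM in MIT-Empty. All 10 tested had a fold change below 0 and 3 were called lower in MIT-BATF, among them Apoe, against 4.58% of all genes called. Fibroblast and endothelial markers summed to 6.85 to 14 and 15.4 to 107 CPM, with Dcn called lower, 1 of 2 tested. The other, Pecam1, was at −0.46 and was not called. B cell markers summed to 2.46 to 4.64 and 0.609 to 1.59 CPM, with Cd79b, 1 of 1 tested, higher in MIT-BATF. Hemoglobin genes summed to 0 to 488 CPM and 0 to 72.7 CPM, with 0 of 4 called. Counting shared counts once, 1.26% of all genes were called. In that fit 1 of 10 macrophage and monocyte markers (Apoe) and Dcn were called, as were 2 of 5 melanocyte and melanoma markers. Cd79b was not called (1.69, edgeR adjusted p = 0.128). The part of these other cells in the levels of the subunits was not tested.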

How the data were processed

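Libraries of 2000 sorted cells were made by the authors with a modified SMART-Seq2 protocol, which does not mark strand, and sequenced as 37 bp paired reads. The authors used nf-core/rnaseq v1.4.2 with mm10 and Salmon (version not given in the sources used here). For each transcript the authors deposited an estimated count and a TPM value. Both were summed per gene with GENCODE vM21 (GRCm38), which left 305 of 112092 transcripts, 0.0617 to 0.089% of counts, unmatched. Counts were rounded. The main test was the quasi-likelihood test of edgeR 4.0.16 (R 4.3.3) with TMM scaling, filterByExpr, group as the only term and Benjamini-Hochberg adjustment over all genes at 0.05. CPM used TMM library sizes. DESeq2 1.42.0 was an alternative. Sums over members carry no test.

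The members and lists were chosen with earlier results of these data known. Named members were all 13 mitochondrial genes, in each complex the member with the highest TPM and with the highest and lowest fold change, and the isoform pairs. Of each list of other genes up to 3 with the smallest p were eligible. The list of mitochondrial RNA that is not coding had no gene in the transcripts used here. Nested libraries were defined as those in which under 1% of genes with at least 5 counts exceeded the other library by more than 0.5. Each library came from 1 mouse by the authors' description of the sort, which the sample labels do not state. The p-values on deposited counts treat libraries that share counts as independent. Ratios by length used a pseudocount of 0.5 CPM. Promoters matched by symbol or unique synonym.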

Additional observations from a re-analysis of the deposited data

Results flagged for a closer look

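A library far from the other 4 of its group, by the ratio of its gap to the whole range, was found in 11 of 86 groups of values examined, where chance gives about 1 in 20. All 11 were mitochondrial values of MIT-BATF replicate 1, and they are not independent of each other. The mitochondrially encoded subunits took 33.2% of its counts against 11.5 to 15.1% in the other MIT-BATF libraries, and their summed level was 418121 CPM against 90554 to 170910 CPM. Among single genes, it held 40977 CPM of mt-Nd1 against at most 13508 CPM, 7447 CPM of mt-Nd2 against at most 2690 CPM, 2813 CPM of mt-Nd3 against at most 766 CPM, 22366 CPM of mt-Nd4 against at most 8477 CPM and 3064 CPM of mt-Nd6 against at most 1228 CPM. It held 54292 CPM of mt-Cytb against at most 21507 CPM, 59058 CPM of mt-Co2 against at most 19020 CPM, 78260 CPM of mt-Co3 against at most 30786 CPM and 67021 CPM of mt-Atp6 against at most 22631 CPM.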

How the results depend on the processing

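No mitochondrially encoded subunit was called under any alternative run. Of the nuclear members, 1 was called by DESeq2 (Cox7a1), against 8.00% of all genes with an adjusted p. With the replicate block 2 were called (Ndufs4 and Ndufv2), 2.47% against 4.02% of all genes. Leaving out single libraries gave 0 to 2 calls. The 2 were Ndufs4 and Cox7a1 without MIT-BATF replicate 5, 2.47% against 4.74% of all genes. The cause was not tested. Same-numbered libraries of the groups did not deviate together throughout (correlations 0.129, 9.9e-05, 0.222, −0.0455 and 0.0221). Whether they share more than a number was not tested. The block left 474 calls among all genes. With it, 17 of 81 nuclear members (21.0%) were lower at an unadjusted p under 0.05, against 10.2% of all genes.

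Genes called in all, 540 on the deposited counts, were 140 with shared counts counted once (138 also without MIT-BATF replicate 1, and 139 with mitochondrial genes left out of library size), 96 without the contained libraries, 15 without the containing ones, 903 with no filter and 1253 by DESeq2. The first 5 of these fits no longer counted the shared counts more than once. Those without the contained libraries, the containing libraries or MIT-BATF replicate 1 also had fewer libraries. Leaving out single libraries gave 287 (MIT-Empty replicate 2) to 772 (MIT-BATF replicate 1).

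The log2 ratio of summed nuclear levels was −0.07 and ranged from −0.17 to 0.01 over single libraries left out. That of mitochondrial levels was −0.08, ranged from −0.60 (without MIT-BATF replicate 1) to 0.09, and was −0.84 with shared counts counted once and MIT-BATF replicate 1 left out. Alternatives that combine 2 changes were chosen after seeing the data. Over 40 named members and 918 refits, 803 kept sign and call, 110 changed sign without passing the test in either fit, and 5 passed. With 5 libraries a group, in part nested, small changes were not detectable: the median SE of a nuclear member rose from 0.18 to 0.28 once shared counts were counted once.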
